A study of Mus musculus with 16 samples.

Results

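The genes described here are 10 immediate early genes, *Fos*, *Fosb*, *Fosl2*, *Jun*, *Junb*, *Jund*, *Egr1*, *Atf3*, *Ier2* and *Ier3*, followed in neural stem/progenitor cells (NSPCs) that overexpressed the homeobox gene *Dbx2*. They were listed by name, with earlier results of these data known, so the share of them called is not that of an independent choice. All 10 were among the 30386 genes of the deposited expression table and among the 12533 genes that were tested. RNA had been sequenced from 8 samples labelled GFP_CTR and 8 labelled Dbx2_constitutive, called *GFP*-NSPCs and *Dbx2*-NSPCs below. Both were transgenic lines of NSPCs from the subventricular zone of C57BL/6 J/Babr mice 3 months old, selected with puromycin, and both were grown as non-adherent neurospheres in medium with EGF and FGF2. The control lines carried a *GFP* transgene in place of the *Dbx2* transgene, and in both cases the transgene was expressed constitutively, so that the cultures show a lasting state and no time course after induction. The samples came from 2 pairs of lines, with 4 independent experiments for each pair, and carry replicate numbers from 1 to 8 in each group. The labels do not say which line or experiment a number stands for, so no line was fitted, and experiments that share a line were treated as separate samples.

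Immediate early genes are transcribed within minutes of a stimulus such as a growth factor, without new protein synthesis, and their transcripts decay quickly. Most of those studied here encode transcription factors: the Fos and Jun proteins pair through leucine zippers to form AP-1, Atf3 joins the same dimer network, and Egr1 is a zinc finger factor under the control of the ERK pathway. In dividing NSPCs they lie downstream of EGF and FGF receptor signalling, and they also answer handling of the cells.

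The libraries held 1803928 to 3293285 reads on genes, so that 1 read corresponded to between 0.304 and 0.554 CPM (reads of a gene scaled to a library of 1000000 reads on genes). The *Dbx2* gene itself was at 30.7 to 171 CPM in *GFP*-NSPCs and 114 to 232 CPM in *Dbx2*-NSPCs, with overlap between the groups in numbers 1 to 4 and none in numbers 5 to 8. Whether the transgene's transcript holds the 3′ end that was counted is not given in the sources used here. Among neural stem and progenitor markers, *Nes*, *Sox2*, *Vim*, *Fabp7*, *Slc1a3* and *Egfr* were above 60 CPM in every sample, while *Prom1* did not exceed 0.65 CPM. The summed level of 6 microglia markers was at most 2.45 CPM and that of 5 fibroblast and mural markers at most 5.78 CPM, while 5 oligodendrocyte markers and 5 endothelial markers reached at most 8.61 and 9.81 CPM. In contrast, 4 ependymal markers summed to 9.66 to 24.2 CPM in *GFP*-NSPCs and 16.1 to 37.6 CPM in *Dbx2*-NSPCs. The 6 neuron markers summed to 26.2 to 46.3 CPM in *GFP*-NSPCs of numbers 1 to 4 but to 2.72 to 6.64 CPM in those of numbers 5 to 8, and to 8.81 to 18.3 and 9.03 to 18.6 CPM in *Dbx2*-NSPCs of these numbers. The part of the ependymal and neuronal transcripts in the differences below was not tested. In bulk RNA, fewer cells with a transcript and less of it per cell cannot be told apart.

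Of the 10 log2 fold changes of *Dbx2*-NSPCs over *GFP*-NSPCs, 9 were above 0, from 0.02 for *Jun* to 1.20 for *Atf3*, but most missed the threshold over all samples. Over all 16 samples, 2 of the 10 genes rose (*Fosl2* and *Atf3*) and 0 fell, by limma on log2(CPM + 0.5), with p-values adjusted over every tested gene after Benjamini and Hochberg and a threshold of 0.05. No gene of the 10 was lower at an unadjusted limma p under 0.05, and edgeR and DESeq2 also called 0 lower. In the same comparison 15.8% of all tested genes were called, and 8.03% were called higher. The median log2 fold change of the 10 genes was 0.51, and that of all tested genes was -0.02. When samples that share a replicate number were compared with each other (replicate block), 5 genes rose (*Fos*, *Fosl2*, *Junb*, *Egr1* and *Atf3*) and *Ier3* fell, against 10.8% of all tested genes called higher and 10.9% called lower.

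**Figure D1:**
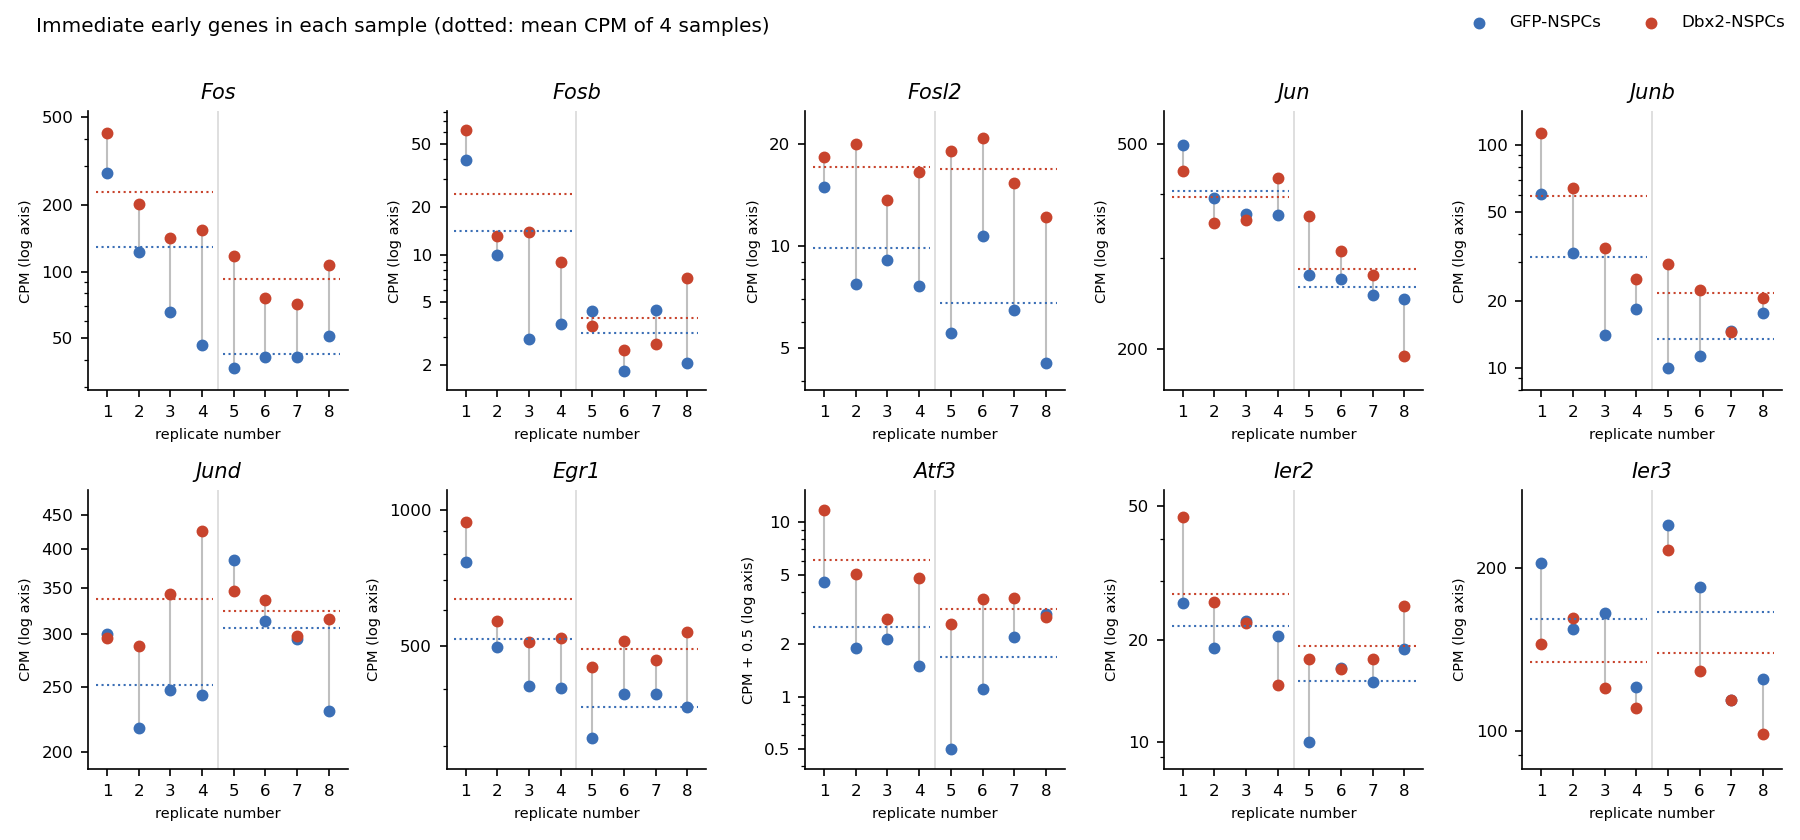
CPM of each gene (log axis; for *Atf3* 0.5 was added because 1 sample was at 0) against replicate number, with *GFP*-NSPCs in blue, *Dbx2*-NSPCs in red, a grey line joining the samples that share a number and dotted lines for the mean of the 4 samples on each side of the vertical line. For *Fos*, *Fosl2* and *Egr1* the *Dbx2* sample lies above the *GFP* sample at all 8 numbers, and for *Jun* it does so at 4.

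*Fos* encodes an AP-1 subunit and was the member with the widest range of levels between cultures among those above 30 CPM in every sample. In *GFP*-NSPCs it was at 281, 123, 65.8 and 46.6 CPM in numbers 1 to 4 and at 36.6, 41.1, 41.3 and 51.0 CPM in numbers 5 to 8. In *Dbx2*-NSPCs it was at 425, 202, 143 and 154 CPM in numbers 1 to 4 and at 118, 76.4, 71.3 and 107 CPM in numbers 5 to 8. Number 1 was the highest of both groups, the groups overlapped in numbers 1 to 4, and every *Dbx2* sample of numbers 5 to 8 was above every *GFP* sample of those numbers. The *Dbx2* sample exceeded the *GFP* sample of its own number at all 8 numbers, by between 0.59 and 1.72 on the log2 scale. The log2 fold change over all samples was 1.07 ± 0.40 (SE, n = 8 per group), which missed the threshold in limma (adjusted p = 0.0757) and passed it with the replicate block (adjusted p = 5.82e-05, SE 0.12). Without *GFP* number 1, the highest *GFP* sample, the fold change was 1.37 and the limma adjusted p was 0.00647. In the other 15 fits without 1 sample *Fos* was not called (adjusted p up to 0.141). An exact 2-sided permutation test of 8 samples against 8 gave an unadjusted p of 0.0379.

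*Fosl2*, which encodes the Fra-2 subunit of AP-1, was called over all samples both with and without the replicate block. It was at 4.52 to 14.9 CPM in *GFP*-NSPCs, with a median of 7.71 CPM, and at 12.2 to 20.8 CPM in *Dbx2*-NSPCs, with a median of 17.4 CPM. The groups overlapped only through *GFP* number 1, which at 14.9 CPM lay above 2 of the 8 *Dbx2* samples. *Fosl2* rose by 1.04 ± 0.20 on the log2 scale (SE, n = 8 per group), with an limma adjusted p of 0.00153, and the *Dbx2* sample was higher at 8 of 8 numbers. Between the 2 sets of numbers *Fosl2* was not called, with a log2 difference of -0.28 and a 95% interval from -0.67 to 0.11. Its mean values in numbers 1 to 4 and 5 to 8 were 9.86 and 6.82 CPM in *GFP*-NSPCs. In *Dbx2*-NSPCs they were 17.1 and 16.8 CPM.

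*Fosb* encodes a subunit closely related to Fos and had few reads, between 5 and 190 per sample. In *GFP*-NSPCs it was at 39.9, 9.88, 2.93 and 3.67 CPM in numbers 1 to 4 and at 4.43, 1.84, 4.44 and 2.06 CPM in numbers 5 to 8. In *Dbx2*-NSPCs it was at 61.0, 13.1, 14.0 and 8.97 CPM in numbers 1 to 4 and at 3.52, 2.48, 2.71 and 7.09 CPM in numbers 5 to 8. The *Dbx2* sample was higher at all of numbers 1 to 4 and at 2 of the other 4 numbers. The log2 fold change of 0.66 had a 95% interval from -0.62 to 1.93 (limma adjusted p = 0.514), and within numbers 1 to 4 it passed with the replicate block (1.06, adjusted p = 0.0414).

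Among the Jun subunits, *Junb* alone was called over all samples, with the replicate block or, in edgeR on the recovered reads, with the set of numbers as a term. *Junb*, an AP-1 subunit that can hold back c-Jun in some settings, was at 60.4, 32.8, 14.0 and 18.3 CPM in *GFP*-NSPCs of numbers 1 to 4 and at 9.97, 11.4, 14.7 and 17.7 CPM in those of numbers 5 to 8. In *Dbx2*-NSPCs it was at 113, 64.3, 34.5 and 25.1 CPM and at 29.2, 22.4, 14.4 and 20.6 CPM. The *Dbx2* sample was higher at 7 of 8 numbers, all except number 7, where the values were nearly equal. Its log2 fold change of 0.78 ± 0.39 (SE, n = 8 per group) missed the threshold in limma (adjusted p = 0.196) and passed it with the replicate block (adjusted p = 0.00457). *Junb* overlaps *Prdx2*, a gene at 409 to 538 CPM on the opposite strand, and the strand used in counting is not given in the sources used here. The deviations of *Junb* and *Prdx2* from their group means had a Pearson correlation of 0.01 over 16 samples, and *Prdx2* was not called between the groups (log2 fold change 0.10, limma adjusted p = 0.344). In numbers 1 to 4, however, *Prdx2* was at 419 to 469 CPM in *GFP*-NSPCs and 479 to 538 CPM in *Dbx2*-NSPCs (0.19, adjusted p = 0.174). In numbers 5 to 8 its log2 fold change was 0.01 (adjusted p = 0.938). Whether reads of *Prdx2* entered the counts of *Junb* was not tested.

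*Jun*, which encodes c-Jun, the partner of Fos in the classical AP-1 dimer, was nearly level between the groups. It was at 250 to 497 CPM in *GFP*-NSPCs (median 321 CPM) and at 194 to 442 CPM in *Dbx2*-NSPCs (median 353 CPM), with 4 numbers higher and 4 lower. Its log2 fold change of 0.02 had a 95% interval from -0.32 to 0.37, and with the replicate block from -0.15 to 0.20. *Jund*, the subunit that is usually present without a stimulus, was at 217 to 386 CPM in *GFP*-NSPCs and 288 to 426 CPM in *Dbx2*-NSPCs. Its log2 fold change of 0.26 had a 95% interval from 0.03 to 0.49 and missed the threshold after adjustment (limma adjusted p = 0.125, and 0.0738 with the replicate block). Without *GFP* number 5, the highest *GFP* sample for *Jund*, the limma adjusted p was 0.0322. In the other 15 fits without 1 sample *Jund* was not called (adjusted p up to 0.221).

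*Egr1*, a direct target of ERK signalling and the usual readout of it, showed a small difference that repeated at every number. In *GFP*-NSPCs it was at 766, 496, 407 and 404 CPM in numbers 1 to 4 and at 313, 391, 390 and 366 CPM in numbers 5 to 8. In *Dbx2*-NSPCs it was at 943, 566, 510 and 520 CPM in numbers 1 to 4 and at 449, 513, 464 and 535 CPM in numbers 5 to 8. *GFP* number 1 lay above every *Dbx2* sample except *Dbx2* number 1, whereas the groups did not overlap in numbers 5 to 8. The *Dbx2* sample was higher at 8 of 8 numbers, by 0.19 to 0.55 on the log2 scale. The log2 fold change of 0.36 ± 0.16 (SE, n = 8 per group) missed the threshold in limma (adjusted p = 0.143) and passed it with the replicate block (adjusted p = 0.000659). Without *GFP* number 1 it was 0.48, with a limma adjusted p of 0.0162. In the other 15 fits without 1 sample *Egr1* was not called (adjusted p up to 0.253).

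*Atf3*, a stress-induced member of the ATF/CREB family that pairs with Jun proteins, had the largest fold change of the 10 genes and the fewest reads. Its reads numbered 10, 4, 5, 3, 0, 2, 5 and 6 in *GFP*-NSPCs of numbers 1 to 8 and 35, 15, 7, 12, 6, 10, 7 and 7 in *Dbx2*-NSPCs, which is 0 to 4.03 CPM against 2.11 to 11.2 CPM. The highest *GFP* sample, number 1, lay above 5 of the 8 *Dbx2* samples, and 3 *GFP* samples were at or under the floor of 3 reads. *Atf3* rose by 1.20 ± 0.40 on the log2(CPM + 0.5) scale (SE, n = 8 per group; limma adjusted p = 0.0469), and the *Dbx2* sample was higher at 7 of 8 numbers. This call was lost in 11 of the 16 fits that left out 1 sample (all except those without *GFP* numbers 1 and 8 or *Dbx2* numbers 3, 5 and 8), where adjusted p ranged from 0.0183 to 0.091, and in edgeR on the recovered reads (adjusted p = 0.0596), while it held with the replicate block (adjusted p = 0.0118).

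*Ier2* and *Ier3* are short early response genes without a classical DNA-binding domain, *Ier2* a nuclear regulator and *Ier3* a regulator of apoptosis and of ERK signalling. *Ier2* was at 9.97 to 25.8 CPM in *GFP*-NSPCs and at 14.7 to 46.5 CPM in *Dbx2*-NSPCs, and its log2 fold change of 0.28 had a 95% interval from -0.18 to 0.73. *Ier3* was the one member with a lower mean in *Dbx2*-NSPCs, at 137 ± 37.8 CPM (SD, n = 8) against 163 ± 44.5 CPM (SD, n = 8) in *GFP*-NSPCs. It was lower at 7 of 8 numbers, and its log2 fold change of -0.25 missed the threshold in limma (adjusted p = 0.336) and passed it with the replicate block (adjusted p = 0.0408). In edgeR on the recovered reads with the same block *Ier3* was not called.

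**Figure D2:**
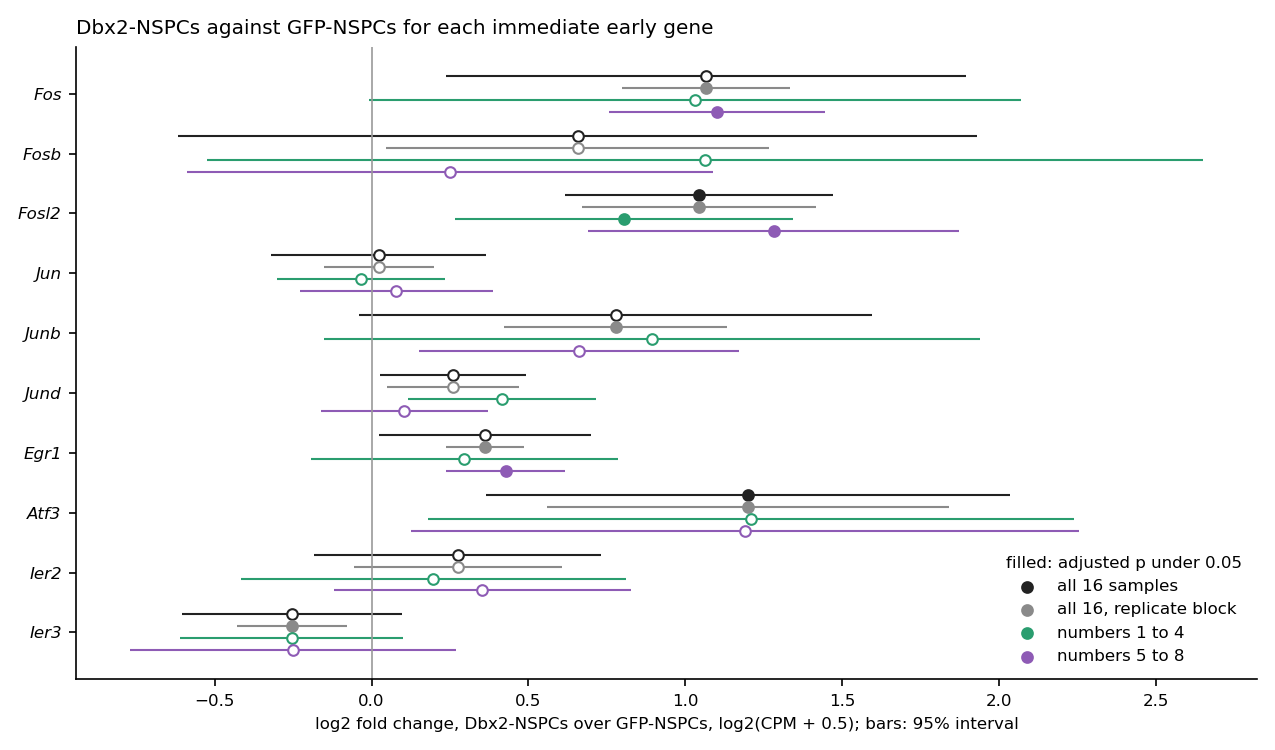
Log2 fold change of *Dbx2*-NSPCs over *GFP*-NSPCs for each gene, on the log2(CPM + 0.5) scale, with 95% intervals, for all 16 samples without (black) and with (grey) the replicate block and for numbers 1 to 4 (green) and 5 to 8 (purple) fitted alone; filled points passed an adjusted p of 0.05. The intervals of *Fos*, *Junb* and *Egr1* are narrower with the block, and *Fosl2* is filled in all 4 fits.

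The comparison was then made within each set of numbers. In numbers 1 to 4 only *Fosl2* was called, at a log2 fold change of 0.81 ± 0.25 (SE, n = 4 per group; limma adjusted p = 0.0459), against 8.19% of all tested genes called higher. That call was lost in 7 of the 8 fits without 1 sample (all except the fit without *GFP* number 1) and with the replicate block (adjusted p = 0.0535). With the replicate block 5 genes rose in numbers 1 to 4, against 8.35% of all tested genes called higher. They were *Fos* (1.03, adjusted p = 0.0046), *Fosb* (1.06, 0.0414), *Junb* (0.89, 0.00683), *Egr1* (0.30, 0.0325) and *Atf3* (1.21, 0.0458). Without *GFP* number 1, limma called *Fos*, *Fosl2*, *Jund* and *Atf3* in these numbers, with a log2 fold change of 1.52 for *Fos*. In that fit 1151 of 12533 tested genes were called higher. None of these members was called in the other 7 fits without 1 sample, where the adjusted p of *Fos* reached 0.422.

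In numbers 5 to 8, *Fos*, *Fosl2* and *Egr1* rose, against 11.5% of all tested genes called higher. The log2 fold changes were 1.10 ± 0.16 for *Fos* (SE, n = 4 per group; limma adjusted p = 0.000184), 1.28 ± 0.28 for *Fosl2* (adjusted p = 0.00374) and 0.43 ± 0.09 for *Egr1* (adjusted p = 0.00288). For the same 3 genes the 4 *Dbx2* samples did not overlap the 4 *GFP* samples, which held for 12.2% of all tested genes in the higher direction. The replicate block called the same 3 genes, against 11.7% of all tested genes called higher. *Junb* was at a log2 fold change of 0.66 there and missed the threshold (limma adjusted p = 0.0602), whereas it was called in edgeR (0.71, adjusted p = 0.0146) and DESeq2 and in edgeR with the replicate block (0.68, adjusted p = 0.0116). In limma it passed without *GFP* number 8 (0.0358) or without *Dbx2* number 7 (0.0246), and in none of the other 6 fits without 1 sample (adjusted p up to 0.177). Without *GFP* number 8 *Atf3* passed as well, which brought the count to 5.

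A gene called in 1 set of numbers and not in the other is not thereby shown to differ between them, so the difference of the 2 fold changes was tested. None of the 10 genes was called in limma, edgeR or DESeq2, against 9.44% of all tested genes in limma, and none had an unadjusted limma p under 0.05. The difference for *Fos* was 0.07 on the log2 scale, with a 95% interval from -0.97 to 1.11 that narrowed to -0.40 to 0.54 with the replicate block. For *Egr1* it was 0.13, with an interval from -0.37 to 0.63. Among the 10 genes *Fosb* had the largest estimate, -0.81, with an interval from -2.53 to 0.90. The *Dbx2* gene itself did differ between the number sets. Its log2 fold change was 0.54 in numbers 1 to 4 (limma adjusted p = 0.089) and 1.99 in numbers 5 to 8 (5.67e-08). The difference was 1.45 (limma adjusted p = 0.000104), and its part in the levels of the 10 genes was not tested.

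**Figure D3:**
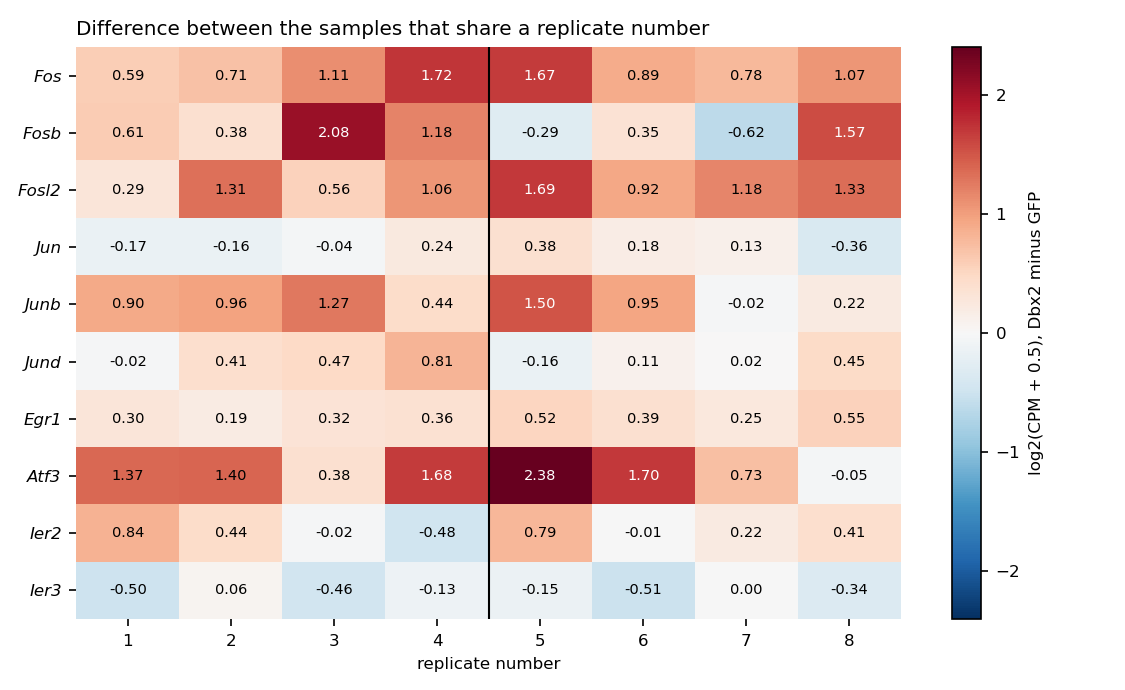
Difference in log2(CPM + 0.5) between the *Dbx2* and the *GFP* sample of each replicate number, for each gene; red is higher in *Dbx2*-NSPCs and the vertical line parts numbers 1 to 4 from 5 to 8. *Fos*, *Fosl2* and *Egr1* are positive in all 8 columns, *Junb* and *Atf3* in 7, and *Ier3* is positive only at number 2.

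Apart from the transgene, the members differed between the number sets. *Fos*, *Fosb*, *Jun*, *Junb*, *Egr1* and *Ier2* were lower in numbers 5 to 8 than in numbers 1 to 4 when both transgenes were averaged, so that 6 of 10 members were called lower against 15.6% of all tested genes. *Fosb* fell by 1.75 ± 0.42 on the log2 scale (SE, n = 8 per set; limma adjusted p = 0.002), *Fos* by 1.22 ± 0.25 (adjusted p = 0.000526), *Junb* by 1.12 ± 0.27 (adjusted p = 0.00218) and *Jun* by 0.55 ± 0.10 (adjusted p = 0.000112). *Egr1* fell by 0.39 (adjusted p = 0.0146), and *Ier2* fell by 0.48, with an adjusted p of 0.0431 that rose above the threshold in 10 of the 16 fits without 1 sample (range 0.0043 to 0.117), all except those without *GFP* numbers 2, 6 and 8 or *Dbx2* numbers 3, 4 and 8. *Fosl2* (-0.28), *Jund* (0.11), *Ier3* (0.00) and *Atf3* (-0.74, adjusted p = 0.113) were not called. Of the 16 fits without 1 sample, *Atf3* passed only in that without *GFP* number 8 (limma adjusted p = 0.0467, range up to 0.26). The number sets also differed in 33.6% of all tested genes in either direction, and the labels do not say what the sets stand for. Of 4 tested neuron markers 3 were lower in numbers 5 to 8 as well, and their part in the set differences was not tested. For *Jun*, the set difference stood beside a fold change between the transgenes of 0.02. *Fos*, in contrast, had differences of about the same size in both comparisons.

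Sample number 1 stood at the top of both groups for 7 of the 10 genes, namely *Fos*, *Fosb*, *Jun*, *Junb*, *Egr1*, *Atf3* and *Ier2*, whereas 5.2% of all tested genes had their highest value at number 1 in both groups. With both samples of number 1 left out, a comparison chosen after their values were seen, *Fos* rose by 1.13 over the other 14 samples (limma adjusted p = 0.00652). *Egr1* then rose by 0.37 (adjusted p = 0.00812), *Fosl2* and *Atf3* kept their calls, and 7.86% of all tested genes were called higher. Between the number sets, *Fos*, *Fosb*, *Jun*, *Junb* and *Egr1* were still called lower in numbers 5 to 8 without number 1 (14.5% of all tested genes), and *Ier2* was not (adjusted p = 0.186). The differences were then smaller, at -0.81 for *Fos*, -1.09 for *Fosb*, -0.73 for *Junb* and -0.19 for *Egr1* on the log2 scale.

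How the members varied together from culture to culture was read within each transgene and number set. Deviations from the mean of each transgene and set were correlated over the 16 samples, as a description that rests on 4 samples a cell and in which library and depth are shared. *Fos* went with *Junb* (Pearson's r = 0.89), *Egr1* (0.89) and *Fosb* (0.87). Each of these genes was highest at number 1 in both groups, and correlations without number 1 were not tested. Over all 45 pairs the median was 0.38. *Jun* went with *Ier3* (0.62) and *Fosl2* (0.61), and *Jund* went against *Ier2* (-0.59). The residual SD within a transgene and set was 0.70 for *Fos*, 0.72 for *Junb* and 1.09 for *Fosb* on the log2 scale, larger than in 99.4%, 99.5% and 99.9% of the 8651 tested genes that averaged 10 CPM or more, whose median was 0.23. It was 0.32 for *Egr1*, and for *Jun* (0.24) and *Jund* (0.23) it was near that median.

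**Figure D4:**
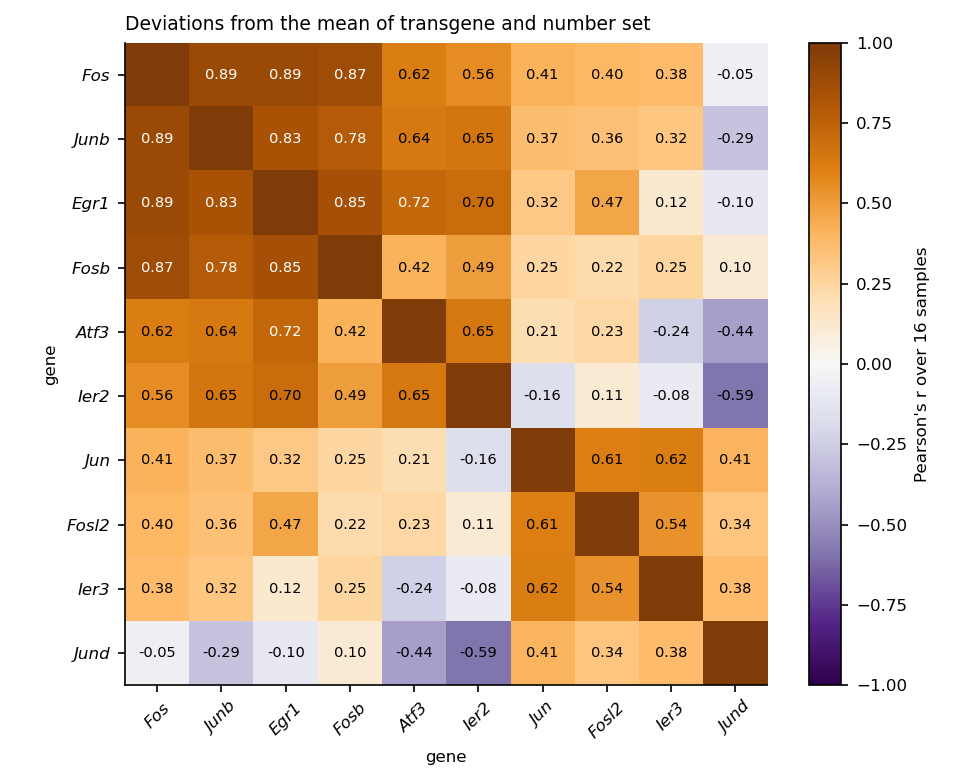
Pearson's r between the deviations of each pair of genes from the mean of their transgene and number set, on log2(CPM + 0.5), over 16 samples. *Fos*, *Junb*, *Egr1* and *Fosb* have r of at least 0.78 with each other, and *Jund* is at or below 0.10 with all of *Fos*, *Fosb*, *Junb*, *Egr1*, *Atf3* and *Ier2*.

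Outside the 10 genes, the pattern most like that of *Fos* by the same measure was that of *Sfxn5* (r = 0.92 over 16 samples), followed by *mt-Nd2* (0.90), *Aurkaip1* (0.90), *Gm2115* (0.88) and *Serhl* (0.87), among 8642 genes. Because a mitochondrially encoded gene was among them, the share of reads on all 13 mitochondrial genes of the table was taken per sample, after this was seen. It was 3.18% to 6.96% in *GFP*-NSPCs and 4.17% to 8.17% in *Dbx2*-NSPCs of numbers 1 to 4, and 3.3% to 4.8% and 5.93% to 6.93% in those of numbers 5 to 8. Number 1 had the highest share of its group and set for both transgenes, and the deviations of this share correlated with those of *Fos* at r = 0.86 over 16 samples. The part of the mitochondrial share in the *Fos* difference was not tested. Heat shock genes, which answer stress through another route, had a median correlation with *Fos* of -0.05, and 0 of 9 tested were called between the transgenes in limma, edgeR or DESeq2, or with the replicate block over all samples (0 at an unadjusted limma p under 0.05), against 15.8% of all tested genes in limma. In numbers 5 to 8 limma called *Hspe1* higher (0.27) and *Bag3* lower (-0.66), and *Bag3* differed between the number sets (adjusted p = 0.0156).

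The start of transcription of *Fos* holds, among other elements, cyclic AMP response elements that CREB-type factors bind, and the promoters that hold the core of this element are shown. Of the 10 genes, 8 had an entry in the RefSeq promoter table for GRCm38.p6, and *Egr1* and *Ier2* had none. The 250 bases before the RefSeq start were searched on both strands for the core TGACG, which was present in 4 of the 8 (*Fos*, *Fosb*, *Junb* and *Atf3*) and in 17.8% of 32851 promoters of that length. The full palindrome TGACGTCA, which contains the core, the AP-1 site TGANTCA and the CArG box that serum response factor binds were in none of the 8, and in 1.55%, 6.75% and 1.47% of all promoters. Bases further from the start were not searched, so a motif missing from these windows can still lie elsewhere at the gene. The motifs were chosen after the fold changes were known, and a match is a description of these letters and no evidence of binding. In each sequence, written 5′ to 3′ on the gene's own strand, the capitals mark the core TGACG or its complement CGTCA.
Fos, chr12:85473640-85473889, plus strand: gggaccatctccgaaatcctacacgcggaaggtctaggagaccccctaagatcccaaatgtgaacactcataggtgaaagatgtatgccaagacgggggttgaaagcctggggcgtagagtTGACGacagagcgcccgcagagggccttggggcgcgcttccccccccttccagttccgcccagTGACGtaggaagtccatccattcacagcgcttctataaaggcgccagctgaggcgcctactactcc
Fosb, chr7:19310046-19310295, minus strand: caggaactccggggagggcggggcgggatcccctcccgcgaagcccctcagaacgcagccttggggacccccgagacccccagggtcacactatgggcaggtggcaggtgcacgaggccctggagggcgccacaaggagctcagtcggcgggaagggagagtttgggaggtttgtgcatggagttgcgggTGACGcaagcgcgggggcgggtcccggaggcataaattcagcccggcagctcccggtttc
Junb, chr8:84978749-84978998, minus strand: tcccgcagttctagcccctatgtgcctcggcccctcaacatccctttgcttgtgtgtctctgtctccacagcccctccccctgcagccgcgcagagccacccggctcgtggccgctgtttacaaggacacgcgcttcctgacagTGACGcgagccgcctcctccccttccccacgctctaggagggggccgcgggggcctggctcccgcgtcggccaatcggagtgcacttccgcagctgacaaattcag
Atf3, chr1:191183334-191183583, minus strand: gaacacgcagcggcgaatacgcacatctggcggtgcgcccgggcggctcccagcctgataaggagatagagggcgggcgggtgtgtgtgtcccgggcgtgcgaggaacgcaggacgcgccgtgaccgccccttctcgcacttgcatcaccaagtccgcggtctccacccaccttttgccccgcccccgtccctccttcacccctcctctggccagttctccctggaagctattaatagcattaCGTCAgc

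The first base of the motif lay 129 and 66 bases before the RefSeq start of *Fos*. It lay 60 before that of *Fosb*, 106 before that of *Junb* and 7 before that of *Atf3*. Within transgene and number set, these 4 genes had correlations of 0.42 (*Fosb* with *Atf3*) to 0.89 (*Fos* with *Junb*), and the 4 genes without a match reached 0.62 among themselves (*Jun* with *Ier3*). The median over all 45 pairs of members was 0.38, and the part of the motif in how the genes varied was not tested. *Fosl2*, which rose over all samples, has no match in its window, and neither have *Jun*, *Jund* and *Ier3*. The RefSeq starts were not always the annotated gene starts. The windows of *Fosl2* and *Atf3* lay inside the annotated genes. That of *Jund* ended at base 70697738, before the annotated gene start at 70698949. The bases before the annotated starts of these genes were not searched. In GENCODE M21, the release that matches Ensembl 96, *Fos* (ENSMUSG00000021250) spans chromosome 12 from 85473890 to 85477273 on the plus strand, *Fosl2* (ENSMUSG00000029135) chromosome 5 from 32135801 to 32157842 on the plus strand, and *Egr1* chromosome 18 from 34859823 to 34864984 on the plus strand. None of these 3 overlaps another annotated gene.

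Other immediate early genes moved in both directions. Of 40 further early response genes, 36 were tested, and 9 rose and 5 fell over all samples, against 8.03% and 7.78% of all tested genes, with a median log2 fold change of -0.02. *Klf4*, a zinc finger factor that restrains the cell cycle, rose by 1.36 ± 0.30 on the log2 scale (SE, n = 8 per group; limma adjusted p = 0.00394), from 20.7 ± 11.0 to 46.7 ± 8.62 CPM (SD). *Dusp5*, a nuclear phosphatase of ERK that ERK signalling induces, rose by 1.36 ± 0.23 (adjusted p = 0.000443), from 11.1 ± 3.79 to 29.1 ± 9.11 CPM. *Bhlhe40* rose by 1.15 ± 0.32 (adjusted p = 0.0189) and *Ier5*, a relative of *Ier2*, by 1.11 ± 0.17 (adjusted p = 0.000146). In each of these 4 genes the *Dbx2* sample was higher at 8 of 8 numbers. For *Klf4* and *Bhlhe40* the size differed between the number sets, in opposite directions. *Klf4* was at a log2 fold change of 2.10 in numbers 1 to 4 and 0.61 in numbers 5 to 8 (adjusted p of the difference 0.0175). *Bhlhe40* was at 0.59 in numbers 1 to 4, where it was not called (adjusted p = 0.0728), and at 1.71 in numbers 5 to 8 (adjusted p of the difference 0.0137). The 5 that fell were *Klf2*, *Per1*, *Btg1*, *Nab2* and *Homer1*, of which *Nab2* encodes a corepressor of Egr1 (log2 fold change -0.55, limma adjusted p = 0.00639). Also called higher were *Gadd45g* (1.11), *Btg2* (0.89) and *Sgk1* (0.67). Among the genes not called were *Egr2* (0.49), *Egr3* (0.32), *Egr4* (-0.49), *Nr4a1* (-0.87), *Arc* (-0.25) and *Dusp1* (-0.21). With the replicate block 10 rose and 6 fell, *Nr4a1* among the latter (adjusted p = 0.0418). In numbers 5 to 8 alone, without the block, 7 were called higher and 3 lower, where 2911 of all 12533 tested genes were called. *Egr4* was among those lower there (-0.97, limma adjusted p = 0.013). The median correlation of the 36 genes with *Fos* from culture to culture was 0.49, beside -0.02 for all tested genes.

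**Figure D5:**
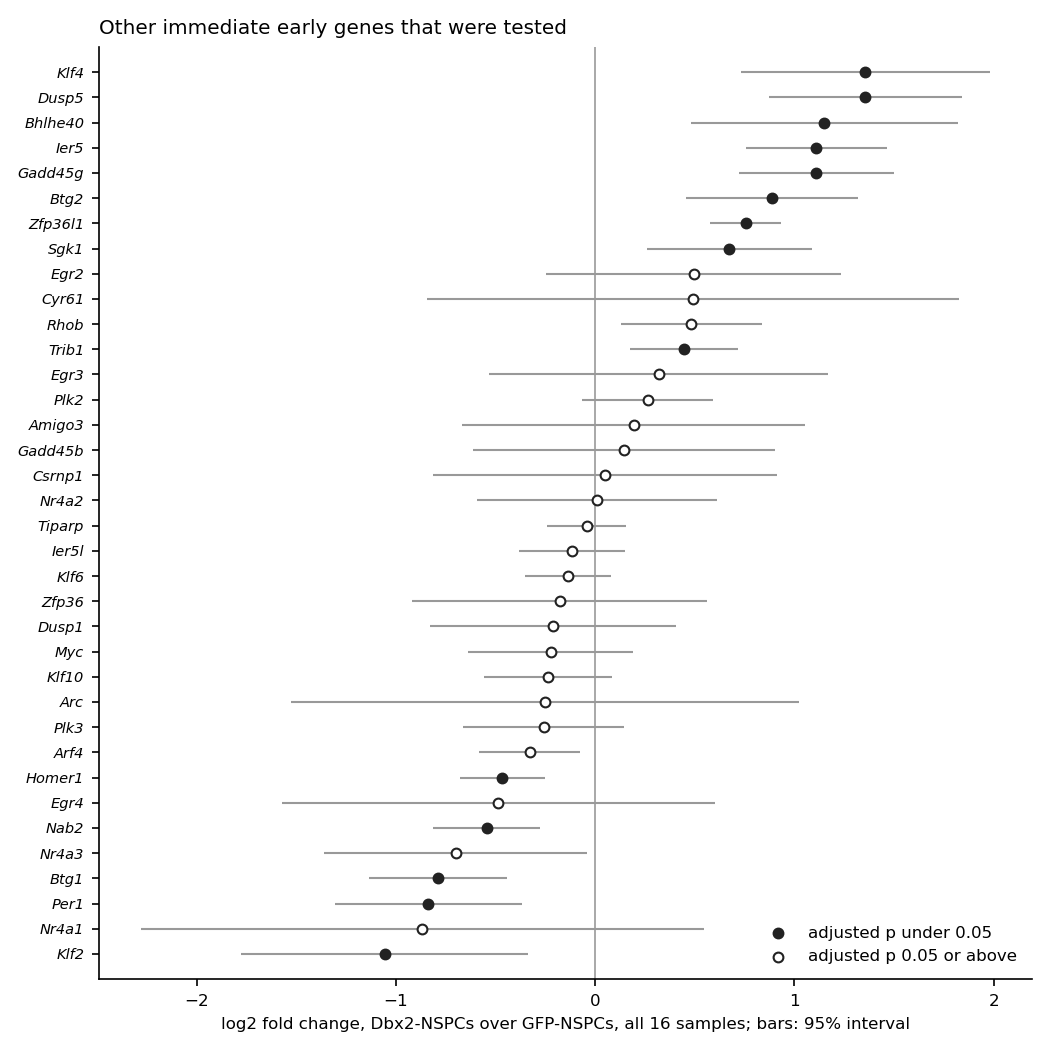
Log2 fold change of *Dbx2*-NSPCs over *GFP*-NSPCs with its 95% interval for the 36 tested genes of the list of other immediate early genes, sorted by value, over all 16 samples; filled points passed an adjusted p of 0.05. From *Klf4* at 1.36 to *Klf2* at -1.06, 9 filled points lie right of 0 and 5 left of it.

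The remaining partners, upstream regulators and targets of AP-1 were read from lists of the same kind. Of 14 other AP-1 and dimer partners, 10 were tested and *Nfe2l2*, the stress factor NRF2, was the one called over all samples, against 15.8% of all tested genes. It rose from 170 ± 50.9 to 256 ± 27.2 CPM (SD, n = 8), by 0.64 on the log2 scale (limma adjusted p = 0.00814). *Mafg*, its small Maf partner, was called as well with the replicate block (0.46, adjusted p = 0.0357). Both differed between the number sets, *Nfe2l2* with 0.93 in numbers 1 to 4 and 0.36 in numbers 5 to 8 (adjusted p of the difference 0.0321), and *Mafg* with 0.03 and 0.89 (0.000469). Of 27 upstream factors and kinases, 2 rose and 3 fell, against 8.03% and 7.78% of all tested genes. *Mkl2*, which encodes the serum response factor coactivator MRTF-B, rose by 1.34 ± 0.27 (SE; adjusted p = 0.00181) and *Rps6ka1*, the ERK-activated kinase RSK1, by 1.17 ± 0.37 (adjusted p = 0.0343). The fold change of *Mkl2* was 1.89 in numbers 1 to 4 and 0.79 in numbers 5 to 8 (adjusted p of the difference 0.00178), while that of *Rps6ka1* was 0.55, which was not called, and 1.79 (0.00223). *Map2k2*, the ERK activator MEK2, fell by 0.51 (adjusted p = 0.000727), *Creb1* fell by 0.48 (adjusted p = 0.00161) and *Egfr*, the EGF receptor, fell by 0.45 (adjusted p = 0.00433). The call of *Rps6ka1* was lost in 8 of 16 fits without 1 sample, those without *GFP* numbers 5 to 8 or *Dbx2* numbers 1 to 4 (adjusted p up to 0.0696), and in edgeR (0.87, adjusted p = 0.116). *Srf* (-0.03) and *Map2k1* (0.17) were not called.

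Of 19 AP-1 target genes, 10 were tested, and 4 rose and 0 fell in limma over all samples (0 lower at an unadjusted p under 0.05), against 8.03% and 7.78% of all tested genes. *Hbegf*, which encodes a ligand of the EGF receptor, rose by 1.16 ± 0.24 (SE, n = 8 per group; limma adjusted p = 0.00251), from 63.8 ± 24.2 to 143 ± 51.5 CPM (SD). *Hmox1*, the heme oxygenase that NRF2 also drives, rose by 1.12 ± 0.18 (adjusted p = 0.00026), and *Cd44*, a hyaluronan receptor, by 0.82 ± 0.19 (adjusted p = 0.00496). *Ccnd1*, which encodes cyclin D1, rose by 0.27 ± 0.07 (adjusted p = 0.0169), and the *Dbx2* sample was higher at 8 of 8 numbers in all of these 4 genes. The secreted proteases *Mmp3*, *Mmp9*, *Mmp10* and *Mmp13*, classical AP-1 targets in other cells, had mean levels of at most 0.29 CPM in either group, below the limit that 3 reads set. Stem cell markers moved too, with *Gfap* higher by 3.31 on the log2 scale (adjusted p = 0.000354) and *Slc1a3* (-1.03, adjusted p = 0.0259) and *Fabp7* (-0.72, adjusted p = 0.0149) lower, and the part of this difference in the levels of the 10 genes was not tested. The call of *Slc1a3* was lost in the 7 fits without *GFP* numbers 2, 3 or 4 or *Dbx2* numbers 5, 6, 7 or 8, where adjusted p reached 0.0543.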

How the data were processed

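RNA (100 ng per sample) was turned into QuantSeq 3′ mRNA libraries and sequenced as single reads of 101 bp. The submitters' processing notes list FastQC 0.11.8, bbduk, STAR 2.5.0a, GRCm38, Ensembl 96 and edgeR 3.36. The counting tool and its strand setting are not given in the sources used here. The authors deposited CPM values per gene, rounded to 2 decimals; 100% of values above 0 came out as whole reads within 0.0051 CPM, and edgeR and DESeq2 used these recovered reads as alternatives. A gene stood for reads near its 3′ end, and 3 reads, taken as the floor, were 0.91 to 1.66 CPM. Intervals and SE without the replicate block cover the spread between samples. Those with the block cover only the spread of the differences within numbers, because the level of each number is fitted.

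Groups came from the sample labels. Of 30386 genes, 12533 exceeded 1 CPM in 4 or more of the 16 samples and were tested with limma 3.58.1 (R 4.3.3; intensity trend) on log2(CPM + 0.5), with Benjamini-Hochberg adjustment. The comparisons were of all *Dbx2*-NSPCs with all *GFP*-NSPCs, of each set of numbers alone, of the difference between both sets, and of the sets with each other. Alternatives were edgeR 4.0.16, DESeq2 1.42.0, pseudocounts, filters, scalings, samples left out, and the replicate number as a block. The labels do not say what a number marks. Samples of the same number deviated together from their transgene means (correlations of 0.152 to 0.303 across tested genes), and since each was over 0.1 the block is given as a paired fit. Other numbers of the same set correlated about as much (means of 0.161 to 0.242), and within number sets the same-number correlations were -0.007 to 0.119, so the block cannot be told apart from the number set by them. Scripts were tested on simulated data.

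The 10 genes and all lists were chosen with earlier results of these data known. From each other list, at most 4 called genes that averaged 10 CPM or more in either group were named, by largest fold change, together with the 5 genes whose pattern was most like that of *Fos*. Genes named as not called, genes named under other fits, and called genes beyond those 4 were chosen after their values were seen. Promoters were taken as the 250 bases before the RefSeq start.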

Additional observations from a re-analysis of the deposited data

Results flagged for a closer look

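For each of the 10 genes, the samples of a group were checked for a value far from the others, as the gap to the nearest sample divided by the group's whole range on the log2(CPM + 0.5) scale and set against Dixon's 95% critical value. Of 60 groups of samples examined, 4 held such a value, and chance gives about 1 in 20. *Egr1* in *Dbx2* number 1, at 943 CPM, had a ratio of 0.687 among all 8 *Dbx2*-NSPCs and of 0.8293 among numbers 1 to 4, the latter just above the critical value for 4 samples. *Atf3* in *Dbx2* number 1, at 11.2 CPM, had a ratio of 0.561. *Ier2* in *Dbx2* number 8, at 25.3 CPM, had a ratio of 0.844 among numbers 5 to 8. None of the 10 genes was called for a difference of the *Dbx2* effect between the number sets. Other genes named were called for it, and the effect in numbers 5 to 8 minus that in numbers 1 to 4 is given on the log2 scale. From the lists, it was 1.24 for *Rps6ka1*, 1.11 for *Bhlhe40*, 1.07 for *Btg2* and 0.86 for *Mafg*. In the other direction it was -1.50 for *Klf4*, -1.10 for *Mkl2*, -1.04 for *Bag3* and -0.57 for *Nfe2l2*. For *Dbx2* itself it was 1.45. Among the genes most like *Fos* it was 1.03 for *Sfxn5*, 1.06 for *Serhl* and -1.57 for *Aurkaip1*.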

How the results depend on the processing

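Over all samples the count of the 10 genes called, 2 in the analysis described, was 1 with a pseudocount of 0.1, no filter on low values, a mean of at least 10 CPM, no intensity trend, or edgeR; *Fosl2* was called in all of these, and *Atf3* was the gene lost (not tested under the filter on the mean). With both median-of-ratios and TMM scaling, a pseudocount of 2, and DESeq2 it was 2. With the replicate block, which compares samples of the same number, it was 6, and 5 in edgeR with the block. With the number set as a term it was 4 (*Fos*, *Fosl2*, *Egr1* and *Atf3*), and 5 in edgeR. Without single samples it ran from 1 to 4 (4 without *GFP* number 1), and it was 4 without both samples of number 1. In numbers 1 to 4 the count, 1 in the analysis described, was 0 with no filter or no intensity trend, 2 in edgeR and DESeq2 (*Fosl2* and *Jund*), 5 with the replicate block, 7 in edgeR with the block, 3 without both samples of number 1, and 0 to 4 without single samples. In numbers 5 to 8 it was 3 or 4 under the other alternatives and 3 to 5 without single samples. The difference between the sets gave 0 genes under every alternative run, and the contrast of the sets gave 4 to 7. The fits of edgeR with the block or the set term, and those without both samples of number 1, were chosen after the data were seen. Among all genes over all samples, 1982 were called, 2723 with the block and 3034 with the number set as a term. In numbers 1 to 4, 1950 were called, 1299 with no filter and 1286 without *GFP* number 3.

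No called fold change of the 10 genes reversed. Those that were not called and changed sign without single samples were the differences between the sets of *Fos* (-0.418 to 0.442), *Jun* (-0.013 to 0.286), *Junb* (-0.62 to 0.155), *Egr1* (-0.074 to 0.338), *Atf3* (-0.51 to 0.361), *Ier2* (-0.096 to 0.447) and *Ier3* (-0.229 to 0.203), and *Fosb* in numbers 5 to 8 (-0.042 to 0.419), *Jun* over all samples (-0.037 to 0.133), in numbers 1 to 4 (-0.09 to 0.07) and in numbers 5 to 8 (-0.046 to 0.254), *Jund* in numbers 5 to 8 (-0.024 to 0.225), and *Ier2* in numbers 1 to 4 (-0.094 to 0.449). The *Atf3* difference was 0.471 with a pseudocount of 0.1, that of *Ier2* was -0.006 in edgeR, and that of *Ier3* was -0.007 with median-of-ratios or TMM scaling and -0.01 in edgeR with the replicate block. Averaged over the transgenes, *Ier3* in numbers 5 to 8 against 1 to 4 ran from -0.114 to 0.081, and was -0.022 with median-of-ratios scaling, -0.024 with TMM and 0.085 without both samples of number 1. *Egr1* between the sets lost its call with no intensity trend (limma adjusted p = 0.0644). The cause of these changes was not tested. *Atf3*, with 0 to 35 reads a sample, had the fewest reads and so the largest relative counting error.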
